A study of Mus musculus with 2 samples.

Results

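The cells described here carried transcripts of the primary granule proteases and peroxidase, Elane, Mpo and Prtn3, in pancreatic tumours of KPPC mice. Members were selected on measured counts. A barcode was a member when it held at least 10 UMIs (unique molecular identifiers, 1 per captured transcript) of Elane, Mpo and Prtn3 together, at most 2 UMIs of C1qa, C1qb and C1qc together, and none of Cd79a, Cd3e or Epcam. Barcodes under 1000 UMIs or 500 genes, or with over 20% mitochondrial UMIs, had been set aside first. The rule found 130 of 36662 barcodes past these filters: 129 of 26790 in the takinib library and 1 of 9872 in the vehicle library. This set is called the precursor gate below, and unless stated otherwise its values are those of the 129 takinib cells.

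The study measured single-cell RNA on the 10x Genomics platform in 2 samples of KPPC pancreatic tumour, 1 from mice given vehicle and 1 from mice given takinib at 50 mg/kg, each for 14 days in mice 6 weeks old. KPPC is the field's name for a mouse model of pancreatic cancer in which pancreas cells lose both copies of Trp53 through a pancreas-restricted Cre; the labels do not write out the alleles or the driver, and they give no number of mice for either library. Both groups were tumour bearing, and no tumour-free mouse was among the samples. Takinib is a small-molecule inhibitor of the kinase TAK1, encoded by Map3k7, which relays signals from cytokine and Toll-like receptors to NF-kB and to MAP kinases. With 1 sample a group there was no test between treatments, and every interval below is a 95% interval of counting error only.

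Neutrophils and monocytes are made in the bone marrow from a shared granulocyte-monocyte progenitor. Primary, or azurophil, granules are filled first, at the promyelocyte stage, with myeloperoxidase and the serine proteases neutrophil elastase, proteinase 3 and cathepsin G. Secondary granules with Camp, Ngp and Ltf follow at the myelocyte stage, and division ends before the band and segmented stages. Transcripts of the primary granule genes are therefore rare in the mature neutrophils of blood and tissue, and cells that hold them are normally found in marrow.

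In the GENCODE M21 annotation of GRCm38, Prtn3 (proteinase 3) lay on the plus strand of chromosome 10 from 79874476 to 79883174, and Elane (neutrophil elastase) followed it on the same strand from 79886247 to 79888215, 3072 bases on. Mpo (myeloperoxidase) lay on the plus strand of chromosome 11 from 87793581 to 87804413. Ctsg (cathepsin G) lay on the minus strand of chromosome 14 from 56099881 to 56102574, in the protease cluster that also holds the basophil gene Mcpt8. The 250 bases before the RefSeq start of these 4 genes are shown because the genes are co-expressed in the members and sit on 3 chromosomes. The windows are from RefSeq's GRCm38.p6 table, chr10:79886062-79886311 on the plus strand for Elane, chr11:87793534-87793783 on the plus strand for Mpo, chr10:79879417-79879666 on the plus strand for Prtn3 and chr14:56102575-56102824 on the minus strand for Ctsg. Each is written 5′ to 3′ along its gene, with matches on either strand to the ETS-type core GAGGAA, the MYB-type core AACNG and the RUNX-type core TGTGGT in capitals.
Elane: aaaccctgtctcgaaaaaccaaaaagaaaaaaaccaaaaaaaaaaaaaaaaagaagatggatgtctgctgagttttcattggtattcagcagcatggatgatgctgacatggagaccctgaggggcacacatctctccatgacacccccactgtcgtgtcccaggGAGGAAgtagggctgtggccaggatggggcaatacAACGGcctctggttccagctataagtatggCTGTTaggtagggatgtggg
Mpo: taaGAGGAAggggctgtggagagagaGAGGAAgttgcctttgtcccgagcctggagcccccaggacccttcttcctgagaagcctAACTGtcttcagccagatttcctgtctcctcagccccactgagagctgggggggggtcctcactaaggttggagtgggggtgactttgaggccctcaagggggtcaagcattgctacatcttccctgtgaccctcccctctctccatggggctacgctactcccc
Prtn3: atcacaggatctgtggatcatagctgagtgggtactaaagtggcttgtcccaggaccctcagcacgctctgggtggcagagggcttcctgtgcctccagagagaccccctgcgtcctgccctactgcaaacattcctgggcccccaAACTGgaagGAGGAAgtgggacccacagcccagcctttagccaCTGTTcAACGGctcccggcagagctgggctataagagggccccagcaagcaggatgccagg
Ctsg: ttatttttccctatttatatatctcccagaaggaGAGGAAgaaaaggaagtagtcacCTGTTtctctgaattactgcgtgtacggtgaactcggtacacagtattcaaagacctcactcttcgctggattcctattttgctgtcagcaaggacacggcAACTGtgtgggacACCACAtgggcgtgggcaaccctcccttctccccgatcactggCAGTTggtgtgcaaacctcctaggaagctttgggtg
GAGGAA stood in all 4 windows and in 23.3% of the 32851 windows of the same length in the table. It began 85 bases before the start in Elane, 95 in Prtn3, 216 in Ctsg, and 247 and 224 in Mpo. AACNG also stood in all 4, but in 74.2% of all windows, and both cores together in 17.4%. TGTGGT was matched on the other strand of Ctsg alone (14.0% of all windows), and the C/EBP-type core TTNNGNAA in none of the 4 (36.8% of all windows). Of the 18 genes of the primary granule list, 15 had a window, and 8 of these 15 held GAGGAA. GENCODE M21 places the start of Elane and of Mpo inside the printed windows, and that of Prtn3 at 79874476, upstream of its window, which then lies inside the GENCODE gene, so the distances hold for the RefSeq starts only. A match describes these letters and is not evidence of binding.

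The deposited takinib matrix held 34158 barcodes with 139292875 UMIs and none below 500 UMIs, while the vehicle matrix was unfiltered, with 80850334 UMIs over 470280 barcodes with at least 1 UMI. The same filters were applied to both. Members were deep: they held 1394 to 25326 UMIs with a median of 13594, against 3049.5 for all takinib cells past the filters, and a median of 1.71% of their UMIs came from mitochondrial genes. The rule is a raw UMI count that deeper cells meet more easily, so this depth is in part a product of selection. Of the 129 members, 2 (1.55%) were among the 6% of takinib cells with the highest Scrublet doublet scores. The libraries shared 400 barcodes past the filters, and 6 of these were barcodes of members.

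Members made up 0.482% of takinib cells (exact binomial interval 0.402 to 0.572%) and 0.0101% of vehicle cells (0.000256 to 0.0564%). The share was 47.5 times higher in takinib, with an exact interval of 8.38 to 1892. The other neutrophil gates differed in the same direction. Immature neutrophils numbered 646 in takinib and 13 in vehicle, an 18.3-fold higher share (10.6 to 34.6). They were taken as cells with at least 10 UMIs of Camp, Ngp and Ltf and under 10 of Elane, Mpo and Prtn3. The C1q, Cd79a, Cd3e and Epcam limits of the member rule applied to this gate and to the mature and monocyte gates below. Mature neutrophils, taken as other cells with at least 3 UMIs of Csf3r, the G-CSF receptor, numbered 3299 and 20, a 60.8-fold higher share (39.3 to 99.6). Monocytes, with at least 5 UMIs of Ly6c2 and Ccr2, numbered 601 and 28, a 7.91-fold higher share.

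As a fraction of the neutrophil-lineage gates, members lay close in the 2 libraries, with a wide interval in vehicle: 129 of 4074 in takinib, or 3.17% (2.65 to 3.75%), and 1 of 34 in vehicle, or 2.94% (0.0744 to 15.3%). With at least 5 UMIs of Elane and Mpo required as well, a condition added after the data had been seen, the fraction was 113 of 4074 (2.77%) in takinib and 0 of 34 in vehicle, which allows up to 8.82% when 3 counts are taken as the limit of a count of 0, and 10.3% by the exact binomial interval. Of the 34 vehicle cells, 20 came from the mature gate with its sparse neutrophil markers, so the vehicle fraction is uncertain beyond its interval. With 34 vehicle cells in these gates a difference in the fraction was not detectable at this depth. Shares across the libraries also rest on how many cells of other types each tumour sample gave.

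The single vehicle member met the rule through Prtn3 alone. It held 10 UMIs of Prtn3 among 7169, none of Elane, Mpo, Ctsg, Ms4a3, Camp, Ngp or Ltf, 1 of C1qa and 69 of Lyz2. All 24 vehicle cells that reached 10 UMIs of the 3 granule genes had at most 1 UMI of Elane and Mpo together, and 23 of them were left out for more than 2 C1q UMIs. Prtn3 was a broader gene than the others in these tumours: in the macrophage gate (at least 10 C1q UMIs) its level was 129.5 CPM (summed counts of the gene per 1000000 summed counts of the gate) in vehicle and 66.4 CPM in takinib, where that of Elane was 0.763 and 4.58 CPM. The data thus hold no vehicle cell with the transcript set that the name of the gate implies. In takinib, 199 cells reached the threshold and 70 were left out: 44 had more than 2 C1q UMIs, 22 had Epcam, 12 had Cd79a and 3 had Cd3e, some with more than 1 of these. Of those 70, 30 had no UMI of Elane, Mpo or Ctsg. Only 37 of the 199 had at most 1 UMI of Elane and Mpo together, so other cells among the 70 did carry these transcripts.

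**Figure D1:**
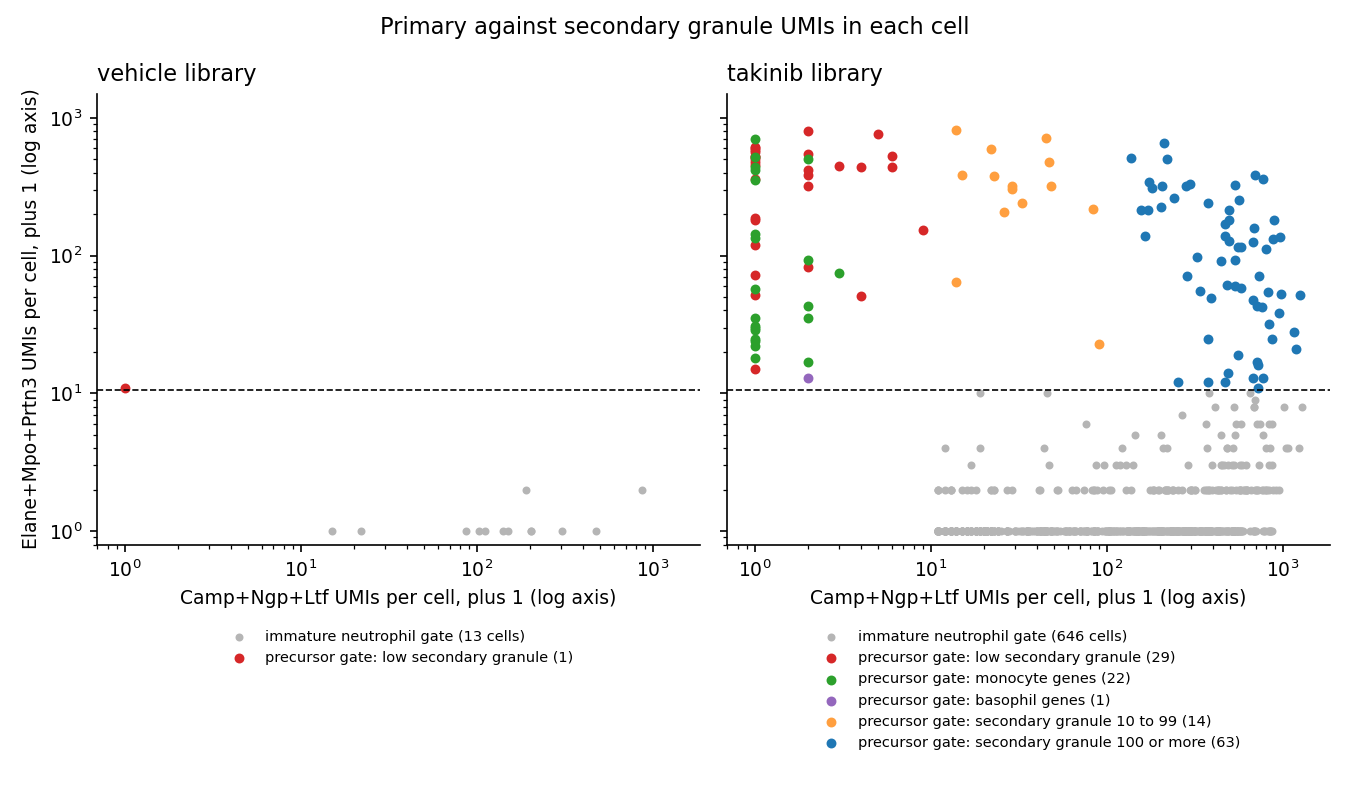
Each point is 1 cell of the vehicle (left) or takinib (right) library, with its UMIs of Camp, Ngp and Ltf plus 1 on the horizontal log axis and of Elane, Mpo and Prtn3 plus 1 on the vertical log axis; the dashed line is the threshold of 10 UMIs. Coloured points are members, in the sets described in the text, and grey points are the immature neutrophil gate: 129 members and 646 immature cells in takinib, 1 and 13 in vehicle.

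Counts over whole libraries, including barcodes below the filters, differed in the same direction. Elane, Mpo and Prtn3 are genes of the rule and most of their takinib counts lay in members. Their ratios thus largely restate the member counts and are given as a description. Elane had 24 counts in vehicle and 12687 in takinib, 307-fold higher relative to the library totals (206 to 479). Mpo had 10 and 7021, 408-fold higher (221 to 850), and Ms4a3, a membrane protein of granulocyte-monocyte progenitors and basophils, had 10 and 2525, 147-fold higher (79.6 to 306). Ctsg had 1 count in vehicle and 4610 in takinib, a ratio of 2676 (480 to 105711). Prtn3 differed least, with 3765 and 18445 counts, 2.84-fold higher (2.75 to 2.95). The members, 129 of the 34158 barcodes, held 84.9% of all takinib counts of Elane, 85.7% of Mpo, 84.3% of Ctsg, 74.7% of Ms4a3 and 66.1% of Prtn3. Elane, Mpo and Prtn3 chose the members, so their shares describe the rule, which did not use Ctsg and Ms4a3.

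Within the gate the levels of these genes spanned 2 orders of magnitude from cell to cell. Elane, which cuts extracellular matrix and bacterial proteins, was detected in 127 of 129 members with 0 to 364 UMIs per cell, a median of 55 and quartiles of 7 and 143. Prtn3, a closely related protease, was detected in all 129 with 3 to 346 UMIs and a median of 67. Mpo, which makes hypochlorous acid from hydrogen peroxide, was detected in 115 with 0 to 336 UMIs and a median of 21. These 3 genes chose the members, so their levels are given as a description. Ctsg, a protease that the rule did not use, was detected in 104 members with 0 to 153 UMIs and a median of 9. Ms4a3 was detected in 126 with 0 to 53 UMIs and a median of 12. Prss57, another serine protease of the primary granule, was detected in 100 members with 0 to 11 UMIs.

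The sum of Elane, Mpo and Prtn3 ran from 10 to 808 UMIs with a median of 138, or a median of 1.15% and a highest value of 11.5% of a cell's UMIs. At the threshold, 7 takinib cells held 10 to 12 UMIs and 24 otherwise eligible cells held 7 to 9. At the other end, 20 cells held 500 or more. Shares of UMIs moved together across the 129 members: Pearson's r was 0.86 for Elane with Prtn3 (Spearman's rho 0.90), 0.93 for Mpo with Ctsg (0.90) and 0.48 for Elane with Mpo (0.82). The cells share 1 library and differ in depth, and these correlations are a description. Gm11505, a non-coding RNA gene on the opposite strand inside Mpo (chromosome 11, 87795784 to 87801144), had 586 counts in 77 members and none in the 646 immature neutrophils, and its share followed that of Mpo with r = 0.72. Whether the counting used strand is not given in the sources used here, so reads of Mpo and Gm11505 cannot be told apart with certainty.

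Levels outside the gate were low, although some cells left out by the C1q, Cd79a, Cd3e and Epcam limits carried these transcripts. After each cell was thinned to 1000 UMIs, Elane was detected in 76.7% of members (98.4% unthinned), and in 0.281% of the macrophage, 0.839% of the B cell, 0.840% of the T cell and 0.387% of the epithelial gate of takinib. Median depths before thinning were 13594 UMIs for members and 6935.5, 2100, 2577.5 and 10262 for these 4 gates in the same order. For Ctsg the thinned share was 49.6% of members, against 0.141% in macrophages and 0.155% in immature neutrophils. It was 0.419% in the B cell, 0.420% in the T cell and 0.322% in the epithelial gate. Members and immature neutrophils were divided by the sum of Elane, Mpo and Prtn3, so the 0.464% of thinned immature neutrophils with Elane is a description of that rule. The B cell gate had the highest summed level of Elane outside the gate, 44.8 CPM, from 141 counts in 22 of 954 cells.

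**Figure D2:**
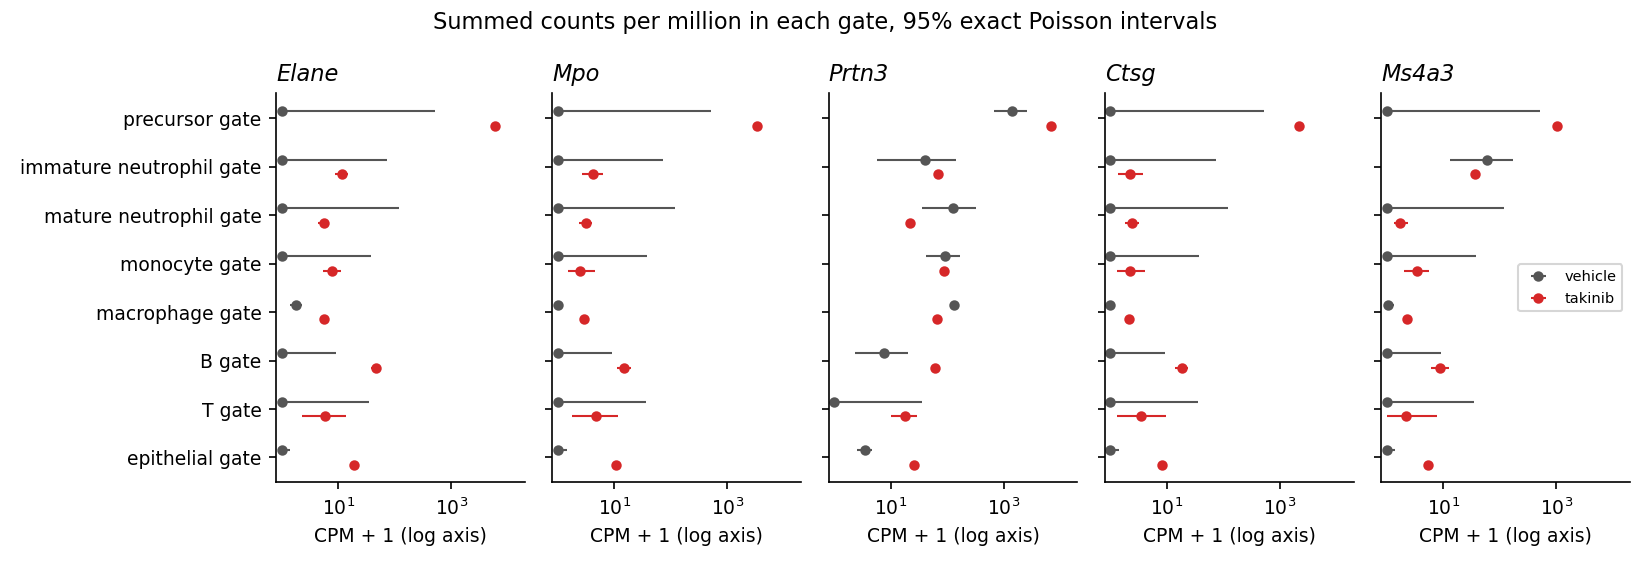
Summed CPM plus 1 (log axis) of Elane, Mpo, Prtn3, Ctsg and Ms4a3 in 8 gates of the vehicle (grey) and takinib (red) libraries, with 95% exact Poisson intervals of counting error. In takinib the precursor gate held 1048 to 6769 CPM of the 5 genes, and the vehicle precursor gate is the 1 cell with Prtn3 alone.

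The name granulocyte-monocyte precursor was checked against further genes and was borne out in part. Progenitor markers were sparse: Cd34 was detected in 9, Kit in 26 and Flt3 in 4 of the 129 members. In contrast, 77 members also held at least 10 UMIs of the secondary granule genes Camp, Ngp and Ltf, which mark a later stage. Sets of members were therefore drawn by UMI thresholds, after the values had been seen, and serve only to describe the members. They comprised 29 cells (22.5%) with under 10 secondary granule UMIs and fewer than 5 of the monocyte genes F13a1 and Ccr2 together, 22 (17.1%) with under 10 secondary granule UMIs and at least 5 of F13a1 and Ccr2, 14 (10.9%) with 10 to 99 and 63 (48.8%) with 100 or more secondary granule UMIs, and 1 with basophil genes. The first set did not lack monocyte genes: 28 of its 29 cells held at least 3 UMIs of the monocyte lineage list.

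The 29 cells of the low secondary granule set held 14 to 795 UMIs of Elane, Mpo and Prtn3, genes that chose them, with a median of 439. The cell with 14 met the rule through Prtn3 alone, as the vehicle member did, with no UMI of Elane, Mpo or Ctsg. At least 1 UMI of Cd34 or Kit was found in 16 of these 29 cells, in 7 of 22 of the monocyte-gene set, and in 3 of 14 and 3 of 63 of the sets with more secondary granule UMIs; the sets differ in depth, with median UMIs of 16016, 16363, 12517 and 12568. The level of Myb, a transcription factor of dividing progenitors, was 350 CPM in this set, 117 in the monocyte-gene set, 131 in the 10 to 99 set and 46.6 in the set with 100 or more. Myc, a driver of growth and ribosome production, stood at 163, 75.2, 22.7 and 13.1 CPM in the same order, and Cebpa, which is needed to form granulocyte-monocyte progenitors, at 82.7, 36.2, 28.4 and 14.3 CPM. The 3 regulators thus had their highest level in the low secondary granule set. Cebpe, which drives secondary granule genes, ran the other way along the granule sets, with 99.3, 250 and 377 CPM from low to 10 to 99 to 100 or more. Gfi1, a repressor that favours neutrophils over monocytes, was highest in the middle set at 85.3 CPM, against 59.1 in the low set and 20.3 in the high set. Summed over whole lists, the low secondary granule set was not the highest. The stem and progenitor list stood at 1447 CPM there, 2508 in the monocyte-gene set, 665 in the 10 to 99 set and 573 in the set with 100 or more. The list of granulocyte and monocyte transcription factors was lowest in the low set, at 1889 against 2614, 2115 and 2759 CPM.

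The primary granule genes themselves did not all follow 1 order. Mpo stood at 6827 CPM in the low secondary granule set, 6095 in the 10 to 99 set and 1356 in the set with 100 or more, and Ctsg at 5012, 3491 and 546 CPM. Elane was highest in the 10 to 99 set at 11326 CPM, with 8787 and 4770 CPM in the low and high sets, and Prtn3 stood at 10780, 11224 and 4670 CPM. Mpo and Ctsg were lowest where secondary granule transcripts were most abundant, by a larger ratio than Elane and Prtn3. Elane, Mpo and Prtn3 chose the members, and Camp, Ngp and Ltf drew these sets, so this order is a description. Of the genes in this order, only Ctsg was used by neither rule. Across the 77 members with at least 10 secondary granule UMIs, the share of Elane, Mpo and Prtn3 and the share of Camp, Ngp and Ltf were inversely related (r = −0.70, rho = −0.75). These are shares of the same UMI total, so abundant genes of one group lower the share of the other.

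The low set was compared with the 63-cell set over 2043 genes with enough counts, of which 345 (16.9%) were at least 2-fold higher and 235 (11.5%) at least 2-fold lower in the low set. Of the ribosome biogenesis and translation list, 14 of 17 counted genes were higher, with Ncl (nucleolin) at 1251 against 234 CPM. Srm, which makes the polyamine spermidine, was 24.6-fold (13.7 to 48.6) higher. Hspe1 and Hspd1, the mitochondrial chaperonins, were 16.9-fold (12.5 to 23.4) and 10.8-fold (7.83 to 15.1) higher, and Ccnd2, a G1 cyclin, 43.5-fold (14.3 to 217). Of the endoplasmic reticulum (ER) protein folding list, 12 of 15 were higher, with Calr at 1329 against 186 CPM. Among the lower genes, Ifitm6 was lower by 84.7-fold, Cd177 by 26.9-fold, Chil3 by 21.1-fold, Lyz2 by 17.6-fold and S100a9 by 14.9-fold. Of the secondary and tertiary granule list, 9 of 10 counted genes were lower. S100a8 stood at 9494 CPM in the low set, 40204 in the 10 to 99 set and 95617 in the set with 100 or more. In other takinib gates it stood at 24588 CPM in B cells, 14350 in T cells, 6877 in epithelial cells and 6101 in macrophages. The part of free RNA in the level of the low set was not tested.

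The monocyte-gene set kept primary granule transcripts at 16 to 695 UMIs per cell, with a median of 49. Besides F13a1 and Ccr2, which chose it, it had the highest level of the 4 monocyte genes that follow. Irf8, the transcription factor of monocyte and dendritic cell fate, stood at 58.5 CPM against 2.4 in the low secondary granule set, and Klf4, another monocyte regulator, at 66.8 against 9.5 CPM. Csf1r, the receptor of M-CSF, stood at 61.2 against 11.8 CPM, and Ms4a6c at 315 against 28.4 CPM. Between these sets 1333 genes were counted, of which 32 (2.4%) were higher and 101 (7.58%) lower in the low secondary granule set. Ifi30 was 36.6-fold, Lgals3 31.9-fold, Tgfbi 40.0-fold and Lyz2 13.3-fold lower there, and Vcan had no count against 98. In the other direction Cd63, a granule membrane protein, was 5.24-fold (3.76 to 7.48) and Nkg7, a granule protein of cytotoxic and progenitor cells, 3.72-fold (2.88 to 4.87) higher.

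The same 22 cells were set against the 601-cell monocyte gate of takinib. Of 6213 genes counted, 636 (10.2%) were at least 2-fold higher and 884 (14.2%) lower. All 12 counted S phase genes and all 13 counted G2 and M phase genes were higher, among them Rrm2 (ribonucleotide reductase) by 28.4-fold (18.6 to 44.4), and Pclaf, a replication factor, was higher by 25.7-fold (20.1 to 33.1). Of the monocyte lineage list, 8 of 14 were lower, as were 5 of 6 MHC class II genes, with Cd74, the class II invariant chain, at 11.1 against 681 CPM. Thbs1 was lower by 62.1-fold and Apoe by 35.1-fold.

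By the full monocyte and neutrophil lineage lists, with at least 3 UMIs of each required, members were hardly divided. Of the 129, 125 held both, 2 only the monocyte list, 1 only the neutrophil list and 1 neither. A count over fewer genes divided them more. With at least 3 UMIs required, 75 of 129 held only the neutrophil genes Cebpe, Gfi1, Fcnb, Ly6g, Mmp8 and Cd177, 14 held only the monocyte genes Irf8, Klf4, Csf1r, Ccr2 and F13a1, 30 held both and 10 neither. One cell carried basophil genes: it held 241 of the 242 member counts of Prss34, 75 of 90 of Mcpt8 and 37 of 37 of Cpa3, with 9 UMIs of Mpo, 3 of Prtn3, 34 of Ctsg and none of Elane among 4644 UMIs. Another cell, of 25326 UMIs, held 480 of 483 counts of Cfd, 183 of 189 of Fabp4, and all 89 of Car3 and 32 of Adipoq, genes of fat cells, beside 134 UMIs of Elane, 124 of Mpo and 139 of Ctsg. Cfd lies 2637 bases past the end of Elane. Values of these genes for the gate as a whole rest on 1 cell each.

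**Figure D3:**
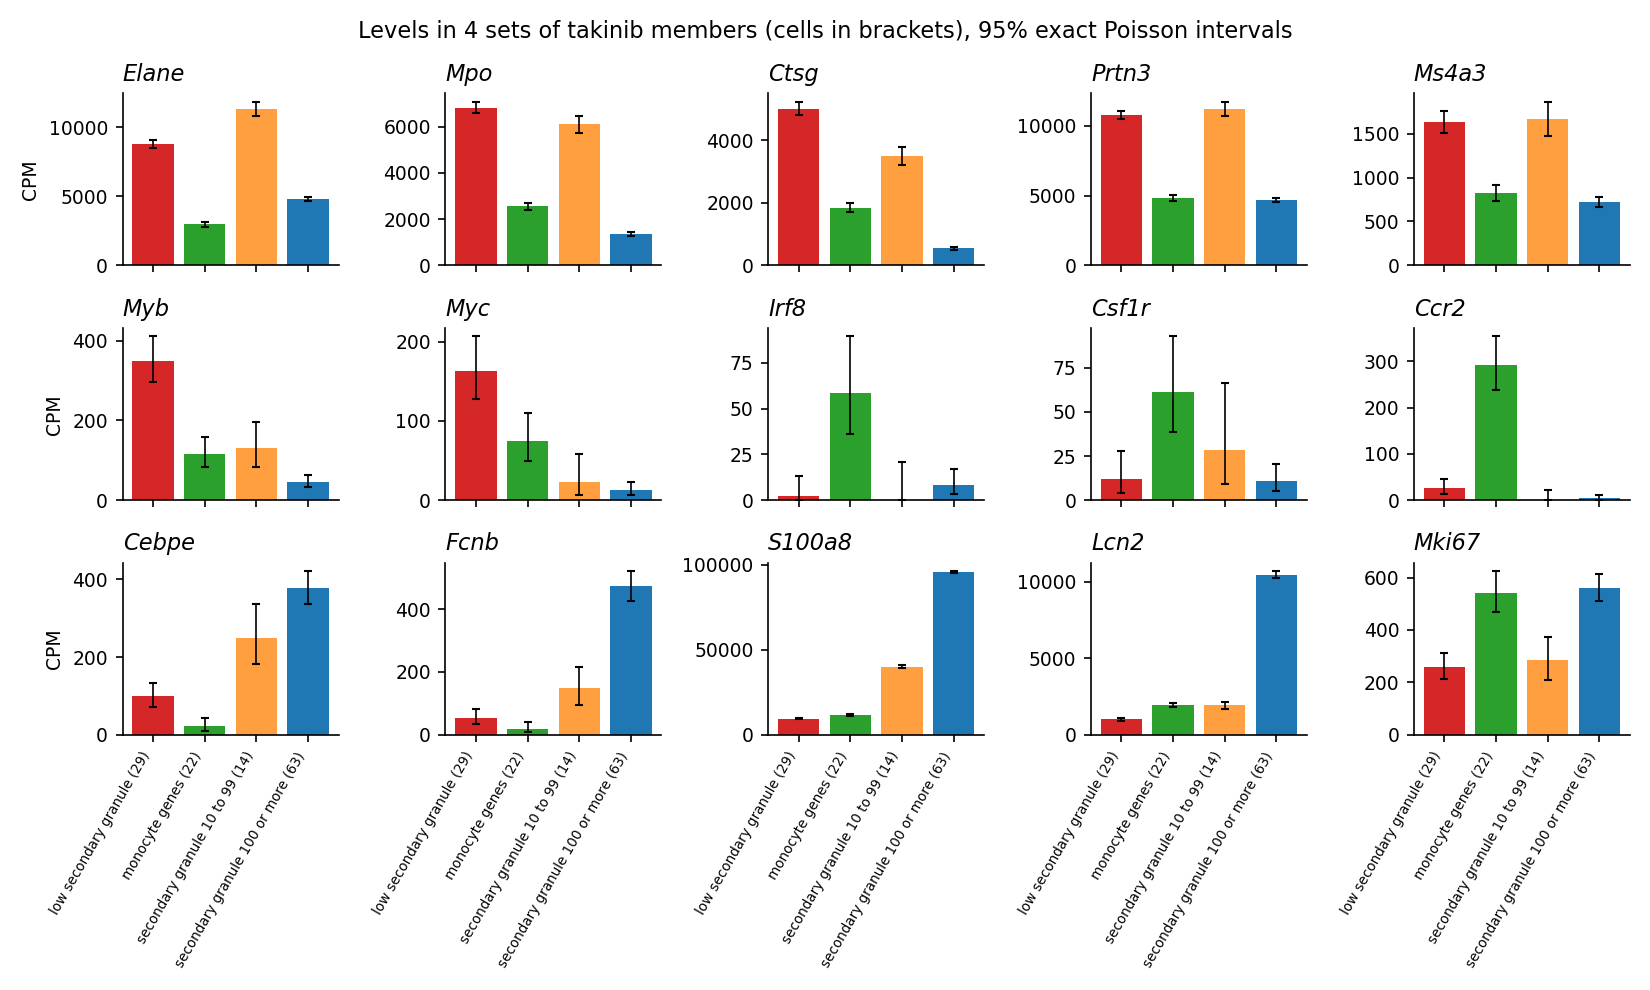
Bars give the summed CPM of 15 genes in the 4 sets of takinib members with 29, 22, 14 and 63 cells, on linear axes from 0, with 95% exact Poisson intervals of counting error. Myb and Mpo were highest in the low secondary granule set, Irf8 and Ccr2 in the monocyte-gene set, and Cebpe in the set with 100 or more secondary granule UMIs.

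Nearly all members carried cell-cycle transcripts. After thinning to 1000 UMIs, 127 of 129 (98.4%, 94.5 to 99.8%) held at least 3 UMIs of 49 S, G2 and M phase genes, against 29.1% (25.6 to 32.8%) of immature neutrophils, 8.43% of mature neutrophils, 7.82% of the monocyte gate and 9.74% of all takinib cells. Without thinning the shares were 100%, 83.3%, 43.9%, 64.6% and 45.7% in the same order. Depth moved the shares of the comparison cells. The member share lay near its ceiling both times and could show little effect of depth. In each set nearly all cells passed: 28 of 29, 22 of 22, 14 of 14, 62 of 63 and 1 of 1. The phases differed among the sets. Mki67, present in late phases, stood at 258 CPM in the low secondary granule set, 543 in the monocyte-gene set, 284 in the 10 to 99 set and 561 in the set with 100 or more. Pcna, a replication clamp, stood at 222, 203, 336 and 173 CPM in the same order. The set with the most secondary granule transcripts thus had a high Mki67 and a low Pcna level relative to the others.

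**Figure D4:**
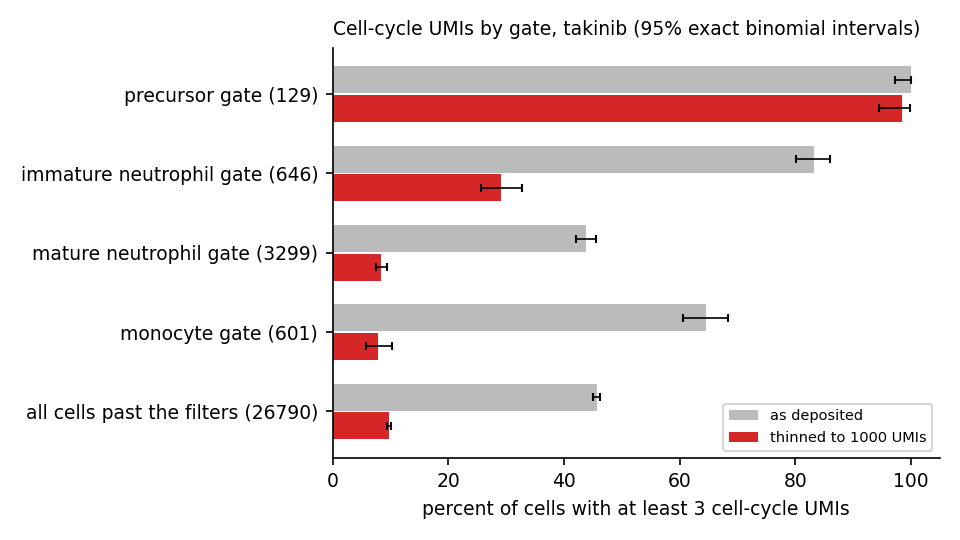
Percent of takinib cells with at least 3 UMIs of the cell-cycle lists in 5 sets of cells, as deposited (grey) and after thinning each cell to 1000 UMIs (red), with 95% exact binomial intervals. The precursor gate stays near 100% after thinning (98.4%), while the immature neutrophil gate goes from 83.3% to 29.1%.

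The members were next compared as a whole with the 646 immature neutrophils of the same library. Of these 646, 224 (34.7%) held only 10 to 49 UMIs of Camp, Ngp and Ltf, where the median of the gate was 134. Ratios are log2 of summed CPM plus 10, genes needed at least 50 summed counts in 1 of the gates, and the 12 genes of the rules were left out. Of 5956 genes, 1495 (25.1%) were at least 2-fold higher and 617 (10.4%) at least 2-fold lower in the members, and the median log2 ratio was 0.19. These gates differ in depth, with median UMIs of 13594 and 5446, in cell-cycle genes, with 9797 and 3448 CPM, and in stage, and the part of each in any gene's ratio was not tested. The gates were drawn on granule genes of these cells, so the counts describe the contrast and support nothing further.

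Ctsg had the highest ratio, with 2160 CPM in members and 1.20 in immature neutrophils, or 1797-fold (769 to 5538). Ms4a3 stood at 1048 against 35.8 CPM, 29.3-fold (24.8 to 34.8), Nkg7 at 447 against 13.9 CPM, 32.1-fold (24.6 to 42.6), and Cst7 (cystatin F, an inhibitor of the cathepsin that activates these proteases) at 196 against 1.68 CPM, 117-fold (56.0 to 292). Ctsg, Ms4a3 and Cst7 are known from the promyelocyte stage. Prss57 stood at 206 against 8.65 CPM. Other leading genes serve growth: Npm1 (nucleophosmin, ribosome assembly) at 1294 against 104 CPM, Srm (spermidine synthesis) at 147 against 2.40 CPM, Phgdh (serine synthesis) at 122 against 1.92 CPM, and Dut (dUTPase, DNA synthesis) at 388 CPM, 20.4-fold higher. Gstm1, a glutathione transferase, stood at 462 against 19.5 CPM and Dmkn (dermokine) at 212 against 6.97 CPM. Prss34, with 134 against 0.721 CPM, is the basophil cell described above.

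Several of the genes with the lowest ratios are known from later neutrophils. Mmp9 (gelatinase) stood at 19.4 CPM in members and 914 in immature neutrophils, Mmp8 (neutrophil collagenase) at 44.4 against 706 CPM, and Retnlg, a secreted protein of mature neutrophils, at 278 against 8195 CPM. Plbd1, a granule phospholipase-like protein, stood at 10.6 against 225 CPM. The stefin genes Stfa3 (3.89 against 681 CPM), Stfa2 (16.7 against 1072), Cstdc5 (161 against 3206), Cstdc4 (186 against 2736) and Csta2 (11.7 against 238) are near-identical neighbours between which reads can be split, and their separate values are uncertain. Col3a1, Col1a2 and Sparc, matrix genes of fibroblasts, were also among the 12 lowest, but 15 of the 646 immature neutrophils held more than 2 UMIs of Col1a1, Col1a2, Col3a1 and Sparc. Without these cells and with at least 50 secondary granule UMIs required, an alternative added after the data had been seen, their log2 ratios came to −0.29, −0.32 and −0.01.

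Of the primary granule list, 14 of 18 genes were counted outside the rule, 7 of them higher and 1 lower, with a median log2 ratio of 0.99. Besides Ctsg, Ms4a3, Cst7 and Nkg7, the higher genes were Plac8 (2226 against 430 CPM), Gusb (log2 ratio 1.62), a lysosomal glucuronidase, and Serpinb1a (1.04), which inhibits elastase and cathepsin G inside the cell. Lyz2 (lysozyme) was the lower one, at 1333 against 3002 CPM. Granule genes shared with many cells differed little, with Rab27a, which moves granules, at 0.11 and Srgn, the granule proteoglycan, at −0.01. Of the secondary and tertiary granule list, 9 of 15 were lower and 1 higher, with a median of −1.43. The higher one was Fcnb (ficolin B, a lectin of immature granulocytes), at 251 against 74.3 CPM, while Ly6g stood at 18.9 against 288 CPM and Olfm4 had no count in members and 189 in immature neutrophils. All 16 genes of the mature neutrophil list had negative ratios, and 14 were at least 2-fold lower, with Cxcr2, the chemokine receptor for marrow exit, at −2.70 and Csf3r at −1.81. The neutrophil lineage list had 4 of 9 lower and 2 higher, Gfi1 and Fcnb.

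Of 15 counted transcription factors, 4 were higher and 1 lower, near the shares over all genes, and their median log2 ratio of 0.09 turned negative under 2 alternatives. The higher ones were Myb (141 against 6.49 CPM, log2 ratio 3.19), Myc (61.7 against 2.88, 2.48), Gfi1 (38.9 against 6.01, 1.61) and Cebpa (37.2 against 11.8, 1.12). The lower one was Cebpb, a factor of mature and activated myeloid cells, at 823 against 2171 CPM. Spi1, which encodes PU.1, stood at 337 against 428 CPM, and Cebpe at 228 against 121 CPM. Of the stem and progenitor list only 4 of 18 genes had enough counts, with Lmo2 (1.86) and Myb higher and Ifitm1 (−1.80) lower. The monocyte lineage list was split, with 2 of 11 higher (Ccr2, 1.53, and Ms4a6c, 1.18) and Fn1 lower (−1.37), and a median of 0.00 that turned negative under 6 alternatives.

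The lists of ribosome production, protein folding, respiration and division lay above the median of all genes. All 17 counted genes of ribosome biogenesis and translation were higher, with a median log2 ratio of 2.62, led by Npm1 (3.52), Nhp2 (3.38) and Nop10 (3.18), which serve ribosomal RNA modification. All 16 ER protein folding genes were higher, with a median of 1.72, led by Sdf2l1 (310 against 19.5 CPM, 3.44) and the chaperone Calr (639 against 74.3 CPM, 2.94). Of 16 nuclear genes of oxidative phosphorylation, 12 were higher and none lower, with a median of 1.67, led by Atp5g1 (2.74), a subunit of ATP synthase, and Cycs (cytochrome c, 2.29). Glycolysis differed from these, with none of 12 higher, 2 lower and a median of −0.13; Gapdh stood at 0.16, and the lower genes were the glucose transporters Slc2a1 (−1.72) and Slc2a3 (−1.84). Of the S phase list, 21 of 22 were higher with a median of 2.35, led by Dut (3.78), the DNA helicase Hells (3.32) and the replication helicase subunit Mcm6 (3.25). Of the G2 and M phase list, 22 of 25 were higher with a median of 1.36, led by Birc5 (survivin, 1.82), and the 3 others, Cenpf, Hmgb2 and Kif23, stood at 0.98, 0.77 and 0.37.

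**Figure D5:**
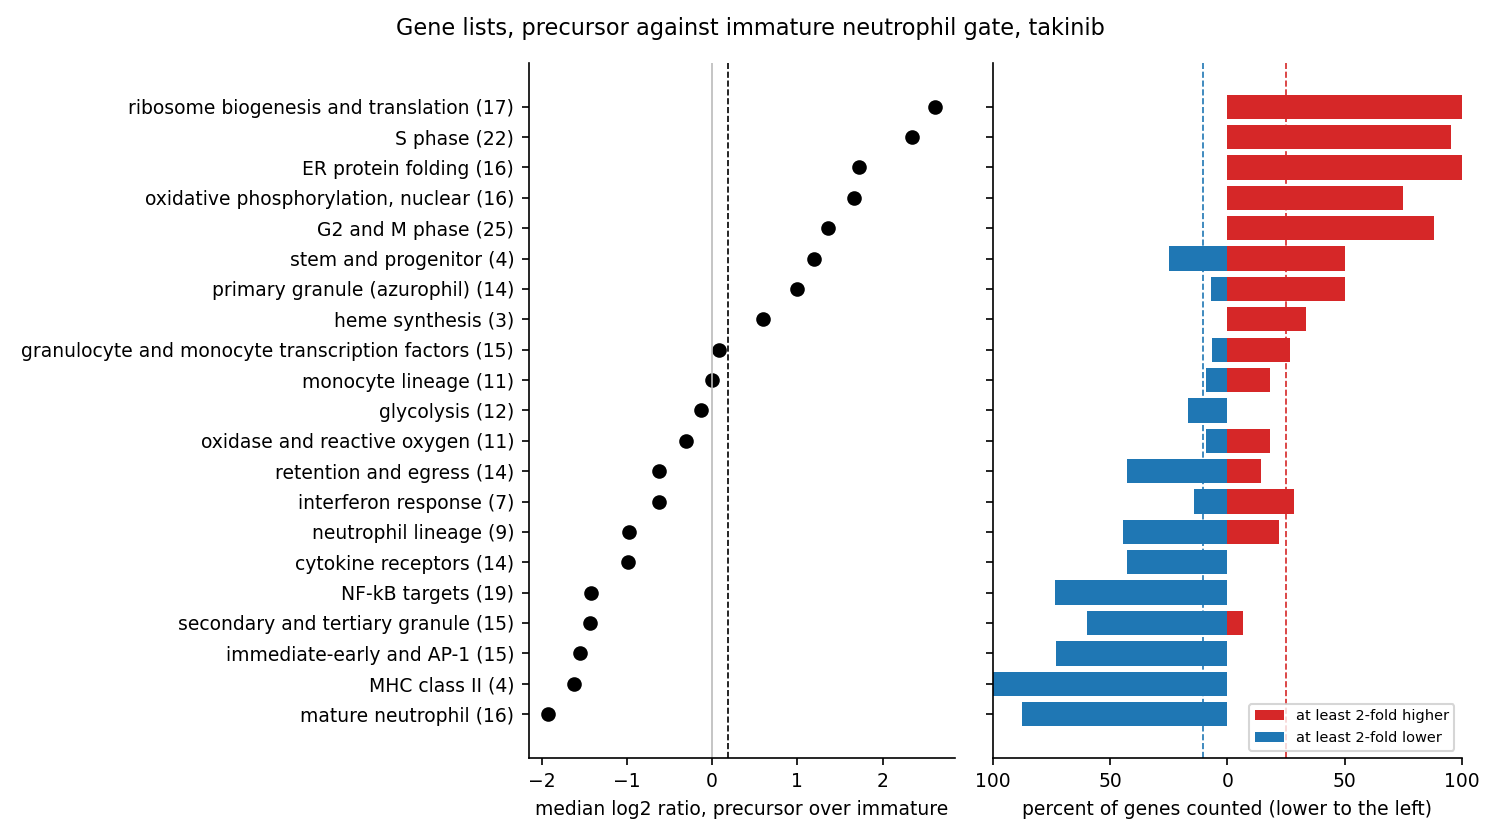
Left, the median log2 ratio of members over immature neutrophils in takinib for each list, with the number of counted genes in brackets and a dashed line at 0.19, the median of all 5956 genes. Right, the percent of counted genes at least 2-fold higher (red) or lower (blue), with dashed lines at 25.1% and 10.4%, the shares over all genes. Ribosome biogenesis (2.62) and S phase (2.35) stand at the top and mature neutrophil genes (−1.92) at the bottom.

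Genes of inflammatory signalling lay on the other side. None of the 19 NF-kB target genes was higher and 14 were lower, with a median of −1.43. Cxcl2, a chemokine for neutrophils, stood at 2274 against 11052 CPM, Il1b at 405 against 2219 CPM, and Ccl3 at −2.27 and Nfkbia, the NF-kB inhibitor, at −1.51 on the log2 scale. Of the immediate-early and AP-1 list, 11 of 15 were lower with a median of −1.55, among them Dusp1 (−2.26) and Klf2 (−2.08), while Fosb stood at −0.08. These genes also respond to tissue digestion, whose part was not tested. Of the retention and egress list, 6 of 14 were lower and 2 higher (Ccr2 and the sialophorin gene Spn, 1.38); Cxcr4, which holds neutrophils in marrow, stood at 62.8 against 73.6 CPM, and Itga4, an integrin of early cells, at 0.91. None of 14 cytokine receptor genes was higher and 6 were lower. All 4 counted MHC class II genes were lower. The remaining lists were mixed: of the oxidase and reactive oxygen list 2 of 11 were higher (Sod1, 1.55, and Prdx1, 1.11, which detoxify oxidants), or 18.2% against 25.1% of all genes, while 8 of 11 ratios lay below 0 with a median of −0.31, and of the interferon response list 2 of 7 were higher (Ifi47, 1.26, and Bst2, 1.16) and 1 lower (Oasl2, 8.89 against 27.9 CPM).

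The target of takinib was scarcely sampled. Map3k7 stood at 23.9 CPM in members and 23.8 in immature neutrophils (log2 ratio 0.00), and Tab2, a partner that links it to ubiquitin chains, at 61.7 and 75.7 CPM. With no vehicle cell that carried Elane or Mpo at the member level, no gene of the members could be compared between treatments.

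Markers of other cell types were summed in both gates. Erythroid markers, 7 genes led by haemoglobins, stood at 45.6 CPM in members and 1454 CPM in immature neutrophils, of which 6 cells held more than 50 haemoglobin UMIs. Macrophage markers, 5 genes, stood at 111 and 267 CPM, and epithelial markers at 17.8 and 34.6 CPM. B cell markers stood at 12.8 CPM, in 17 members, and 1.68 CPM, and T cell markers at 0.556 and 6.25 CPM. Megakaryocyte markers stood at 17.2 and 29.6 CPM, plasmacytoid dendritic markers at 64.4 and 31.2, B precursor markers at 3.33 and 3.37, eosinophil markers at 0.556 and 0.481, and basophil and mast cell markers at 212 and 1.68, the last from 1 cell in the main. Members were thus lower than immature neutrophils in erythroid, macrophage, epithelial, megakaryocyte and T cell markers, and higher in B cell, plasmacytoid dendritic and basophil markers. The markers Cd79a, Cd3e and Epcam are at 0 by the rules of both gates. Siglech, of plasmacytoid dendritic cells, and Epx and Prg3, of eosinophils, had no count in either gate. The part of these markers in the ratios above was not tested.

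Against the 3299 mature neutrophils of takinib, 1685 of 8708 genes (19.4%) were at least 2-fold higher in members and 1136 (13%) lower. Fcnb stood at 251 against 0.334 CPM, 751-fold (291 to 2767), and Serpinb1a at 1010 against 12.4 CPM, 81.2-fold (68.7 to 96.7). All 22 counted S phase and all 25 G2 and M phase genes were higher, and all 19 NF-kB targets were lower. Cxcl3 was lower by 25.03-fold (21.8 to 28.9), Il1b by 17.6-fold and Wfdc17, a small inhibitor secreted by myeloid cells, by 16.5-fold. Against the 601 cells of the monocyte gate, 646 of 6519 genes (9.91%) were higher and 1051 (16.1%) lower. Serpinb1a was 65.9-fold (49.9 to 88.8) and Fcnb 49.03-fold (30.3 to 84.9) higher there too, while Arg1 (arginase 1) was 59.3-fold, Fn1 (fibronectin) 26.9-fold and S100a4 21.3-fold lower. Of the monocyte lineage list, 13 of 14 were lower, as were all 6 MHC class II genes and 15 of 19 NF-kB targets. The NF-kB list was thus lower in members than in each of the 3 gates they were set against.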

How the data were processed

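Single-cell RNA of 2 KPPC tumour samples was analysed, 1 vehicle and 1 takinib library, with groups taken from the labels. The authors deposited unnormalised UMI counts for every gene in every barcode. Per the file headers, version 4 of Cell Ranger wrote the vehicle matrix and version 6.1.1 the takinib matrix. The submitters' processing notes name Cell Ranger 2.1.1, STAR, featureCounts and mm10 without roles, which differs from the headers. Versions that differ, and a takinib matrix filtered before deposit beside an unfiltered vehicle matrix, can move shares and low counts between libraries.

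Barcodes needed at least 1000 UMIs, 500 genes and at most 20% mitochondrial UMIs. Counts were summed over the cells of each gate and scaled to CPM, and ratios are log2 of CPM plus 10 over CPM plus 10, which understates the change of low genes. Genes with at least 50 summed counts in either gate were compared and called at 2-fold. Named genes were the 12 at either end of the ranked ratios, leaving out rule, mitochondrial, ribosomal protein, haemoglobin, immunoglobulin and clone-named genes. Ctsg and members of 22 pathway and 10 marker lists could be named as well. Gm11505, Hspe1, Hspd1, Ccnd2 and other genes named only in comparisons of the sets or of other gates were chosen after their values were seen. The members and lists were chosen with earlier results of these data known. Cells are not replicates, so no test was run. Intervals are exact Poisson for levels, exact Clopper-Pearson for shares and exact conditional for ratios of 2 counts, at 95%, and cover counting error only; a count of 0 allows up to 3 counts. Thinning drew 1000 UMIs per cell with a fixed seed. Doublets were scored with Scrublet in scanpy 1.11.5 but not removed from the main values, because its automatic threshold marked almost no takinib cell. No correction for free RNA was made. Python 3.11.15, numpy 2.4.6, scipy 1.17.1 and pandas 2.3.3 were used, and the procedure was tested on simulated data. Settings varied were the gate threshold, filters, pseudocount, scaling, gene filter, doublets, denominator, thinning and subsets of members. A few items are not reported here.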

Additional observations from a re-analysis of the deposited data

How the results depend on the processing

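Each group has 1 sample, so no replicate was left out. No paired analysis was possible because no group has replicates and no test was run. The takinib share of 0.482% became 0.683% at a threshold of 5 UMIs, 0.859% among cells with 2000 UMIs and 1000 genes, 3.17% of the neutrophil-lineage gates and 0.299% after thinning. The vehicle share of 0.0101% became 0% at 20 UMIs, after thinning or with 5 UMIs of Elane and Mpo required, and 2.94% of the neutrophil-lineage gates. At 5 UMIs, 86.3% of members held cell-cycle transcripts. With a pseudocount of 50 CPM, 579 genes were higher and 228 lower, in place of 1495 and 617. Scaling to a median log2 ratio of 0, a shift of 0.19, gave 1210 higher and 810 lower. Directions turned for 12 values. Prss34 came to −0.0131 at 20 UMIs and −0.00335 without the monocyte and basophil sets, since 1 cell holds its counts. The monocyte lineage median came to −0.15 at 20 UMIs, −0.0850 with 2000 UMIs, −0.0798 without the highest doublet scores, −0.19 after median scaling, −0.21 with Elane and Mpo required and −0.76 without the monocyte and basophil sets. The transcription factor median came to −0.10 after median scaling and −0.35 in members with under 10 secondary granule UMIs. The glycolysis median came to 0.00163 in those members and 0.0320 against stricter immature neutrophils. The 4 alternatives that require Elane and Mpo, use stricter immature neutrophils, or leave out the monocyte and basophil sets or the cell with fat genes were chosen after seeing the data. The causes were not tested unless given.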
